A study of Mus musculus with 32 samples.

Results

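Chronic stress was compared with acute stress in the amygdala of mice whose amygdala had been injected with DMSO, the solvent, with no thiol-labelled nucleoside in it. The libraries were chosen by their titles: 3 libraries of chronic stress with DMSO and 5 libraries of acute stress with DMSO, which are 8 of the 26 amygdala libraries and 8 of the 32 libraries of the series. The series as a whole set up SLAM-seq in living mouse brain, a method that marks new RNA with 4-thiouridine (4sU) and reads the mark as T-to-C conversions, and the DMSO arm shows RNA levels under the same surgery without the label. All mice were wild type (WT), the injection was made stereotaxically 24 h before RNA extraction, the amygdala of both sides was taken, and the RNA was extracted with Trizol and alkylated. The 4 baseline libraries with DMSO, from mice without stress, are given as levels only. The sources used here do not describe the stress procedures, the time from the last stress to extraction, or the age and sex of the mice, and do not say whether each library came from a separate animal, so p-values measure only the spread between these samples.

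Stress makes the adrenal gland release glucocorticoids, corticosterone in mice, which enter the brain and bind the glucocorticoid receptor (Nr3c1) and the higher-affinity mineralocorticoid receptor (Nr3c2). The bound receptor leaves its chaperone complex, enters the nucleus and binds DNA, classically at a palindromic glucocorticoid response element, and switches on genes such as Fkbp5, Sgk1, Tsc22d3 and Ddit4. Fkbp5 is itself a chaperone that lowers the receptor's affinity for hormone, which closes a negative feedback loop, and in the amygdala, where fear and threat are processed, the same hormone acts on neurons, glia and vessels.

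Exon counts summed to between 16542106 and 17590402 in the chronic libraries, to between 16840214 and 18148936 in the acute libraries and to between 16211186 and 17596612 in the baseline libraries. The acute libraries varied most among themselves. The biological coefficient of variation, the typical relative spread of a gene between replicates, was 12.4% in the chronic and 26.3% in the acute libraries, against 8.75% in the baseline libraries with DMSO. Chronic library 1 and acute libraries 1, 3 and 4 had markers of glutamatergic neurons more than 1 log2 unit under the median of the 26 amygdala libraries, a mean log2 CPM (edgeR, prior count of 2) of 3.82 in chronic library 1 and of 4.03, 3.20 and 4.06 in those 3 acute libraries, against a median of 5.60. In acute library 2 the intervals of 3′ UTRs took 23.9% of the reads, where the rest of the acute libraries had 18.5% to 19.0%. CPM below are counts scaled to library size, with TMM factors over the 12 DMSO libraries.

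Most genes that respond to glucocorticoids had lower levels in the chronic than in the acute libraries, and most genes of glial injury, interferon response and vessels had higher levels, but no single gene passed the test. None of the 15763 genes tested passed an adjusted p of 0.05 with edgeR's quasi-likelihood test on the 8 libraries (0.0%). The smallest adjusted p was 0.0705, shared by Ddit4, Sgk1 and Fkbp5. At an unadjusted p under 0.05 stood 1020 genes (6.47%), 369 of them lower (2.34%) and 651 higher (4.13%) in the chronic libraries, and the median log2 fold change of all genes, chronic over acute, was 0.00. With the same counts DESeq2 called 136 genes, 76 lower and 60 higher. When all 6 amygdala groups shared a fit, and so a spread set mostly by groups that vary less than the acute DMSO libraries, 291 of 16310 genes were called (1.78%), 175 lower (1.07%) and 116 higher (0.711%). Adjusted p-values below are from the fit of the 8 libraries unless the fit of 6 groups is named. In 471 genes every chronic library was below every acute library (2.99%), and in 571 every chronic library was above (3.62%).

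Genes listed as glucocorticoid-responsive led the whole table, with the 3 smallest p-values. Ddit4 is a stress-induced brake on mTORC1. It had 42.7, 48.5 and 47.7 CPM in the chronic libraries, against 107, 145, 161, 137 and 110 CPM in the acute libraries, with 46.6, 38.9, 36.4 and 76.2 CPM at baseline. Every chronic library lay below every acute library and inside the baseline range, and the log2 fold change was -1.50 ± 0.16 (SE; adjusted p = 0.0705, edgeR; 0.000117 in the fit of 6 groups). Sgk1, a kinase that acts on ion channels and transporters, had 167, 167 and 129 CPM in the chronic libraries, against 394, 516, 662, 514 and 410 CPM in the acute libraries, with 85.1, 70.7, 136 and 294 CPM at baseline. Again the groups did not overlap, and baseline library 4 was above every chronic library (log2 fold change -1.68 ± 0.20 SE, adjusted p = 0.0705, edgeR; 0.0128 in the fit of 6 groups). Fkbp5 had 46.8, 57.8 and 53.8 CPM in the chronic libraries, against 94.2, 97.6, 115, 104 and 108 CPM in the acute libraries, with 40.8, 39.3, 62.0 and 83.9 CPM at baseline. Its groups did not overlap either, at a log2 fold change of -0.96 ± 0.12 (SE; adjusted p = 0.0705, edgeR; 0.00274 in the fit of 6 groups). The genes lie at chr10:59949675-59951770 (Ddit4), chr10:21882184-21999902 (Sgk1) and chr17:28398753-28486149 (Fkbp5) in the deposited mm10 annotation. With reads in 3′ UTR intervals of the same libraries in place of exon counts, where 12630 genes were tested, all of them passed (adjusted p = 0.0349 each, edgeR). With exon counts and fewer libraries, the adjusted p (edgeR) of each was 0.303 without acute library 4 and 0.51 without chronic library 3. It was 0.839 for each without the libraries low in glutamatergic markers, where 4 libraries were left. Each of these values was the smallest adjusted p of any gene in its fit. In the fit of 4 libraries the log2 fold changes were -1.41 for Ddit4, -1.65 for Sgk1 and -0.88 for Fkbp5. They were -1.48, -1.67 and -0.96 without acute library 4, and -1.55, -1.60 and -1.005 without chronic library 3. Without acute library 2 the adjusted p (edgeR) was 0.0442 for Ddit4 and Fkbp5 and 0.0573 for Sgk1.

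The letters of the receptor's response element can be read beside Sgk1. The palindrome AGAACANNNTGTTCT, searched on both strands in windows from 250 bases before to 50 bases after each RefSeq transcript start (GRCm38.p6), occurred in 3 of 32851 windows (0.00913%). Of the 30 glucocorticoid-responsive genes described here 27 had windows, 38 in all, and 1 window, of Sgk1, held it. The half-site AGAACA alone, which every palindrome contains, occurred in 6 of the 38 windows, of Bcl6, Sgk1, Sult1a1 and Tsc22d3, against 19.0% of all windows. The Sgk1 window at chr10:21993640-21993939 on the plus strand, 1 of 6 windows of this gene, is shown with the palindrome in capitals. It starts 189 bases upstream of the transcript start, at chr10:21993701-21993715.
Sgk1 promoter window, RefSeq, GRCm38.p6: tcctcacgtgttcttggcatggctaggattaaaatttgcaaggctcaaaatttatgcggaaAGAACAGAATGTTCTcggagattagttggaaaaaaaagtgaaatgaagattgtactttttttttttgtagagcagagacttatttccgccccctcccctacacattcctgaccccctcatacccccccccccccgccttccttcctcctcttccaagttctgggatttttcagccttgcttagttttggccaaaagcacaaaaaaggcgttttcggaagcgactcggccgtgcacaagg
A match of letters is a description of the window, and receptor binding was not measured.

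Of the 30 glucocorticoid-responsive genes tested, 28 had a log2 fold change below 0, with a median of -0.53 against 0.00 over all genes. In 14 of them every chronic library was below every acute library (2.99% of all genes), and in 0 of them above. At an unadjusted p under 0.05 stood 19, all lower (2.34% of all genes), and the fit of 6 groups called 13, all lower (1.07% of all genes). Without the 4 libraries low in glutamatergic markers, 18 did not overlap in this direction, against 17.7% of all genes. Without acute library 2 it was 21, against 6.13% of all genes. Myelin markers were lower too, 17 of 18 below 0 with a median of -0.55. Their summed level in the acute libraries was 20820, 29459, 32127, 26764 and 20069 CPM, highest in acute library 3 and lowest in acute libraries 1 and 5. Ddit4 and Sgk1 had the same highest and lowest acute libraries. Fkbp5 was highest in acute library 3 but lowest in acute libraries 1 and 2, and Arrdc2, Tsc22d3 and Nfkbia were highest in acute library 2. Among the chronic libraries, library 1 was highest in myelin and, narrowly, for Sgk1, but lowest for Ddit4 and Fkbp5. The part of tissue makeup in the glucocorticoid-responsive genes was not tested.

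Arrdc2, an alpha-arrestin, had the largest fitted fold change of the list: 21.7, 18.7 and 14.6 CPM in the chronic libraries, against 49.2, 98.9, 87.6, 70.0 and 57.3 CPM in the acute libraries. Its log2 fold change was -1.97 ± 0.25 (SE; adjusted p = 0.0905, edgeR; 0.00161 in the fit of 6 groups). Tsc22d3, the gene of GILZ, a leucine zipper protein that dampens inflammation, had 79.3, 85.5 and 67.2 CPM in the chronic libraries, against 133, 256, 199, 168 and 149 CPM in the acute libraries. The log2 fold change was -1.21 ± 0.21 (SE; adjusted p = 0.139, edgeR; 0.000162 in the fit of 6 groups). In both genes the lowest acute library was acute library 1, still clear of the chronic range. Nfkbia, the inhibitor that holds NF-kappaB in the cytoplasm, had 21.4, 27.0 and 20.7 CPM in the chronic libraries, against 37.3, 63.5, 60.5, 51.5 and 46.7 CPM in the acute libraries. On the log2 scale the fold change was -1.16 ± 0.19 (SE; adjusted p = 0.107, edgeR; 0.00101 in the fit of 6 groups). Cdkn1a, the cell cycle inhibitor p21, had 16.4, 15.2 and 11.8 CPM in the chronic libraries, against 34.2, 33.5, 73.0, 50.3 and 39.5 CPM in the acute libraries. This is a log2 fold change of -1.66 ± 0.28 (SE; adjusted p = 0.131, edgeR; 0.00886 in the fit of 6 groups). Neither gene overlapped between the groups.

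Other members went the same way. Pdk4, a kinase that turns off pyruvate oxidation, had a log2 fold change of -1.17, Errfi1, a feedback inhibitor of the EGF receptor, of -1.08, Mt2, a metallothionein, of -0.90, Klf15, a transcription factor of amino acid and lipid metabolism, of -0.53, and Glul, glutamine synthetase, of -0.49. None of these overlapped between the groups, and their adjusted p-values (edgeR) lay between 0.216 and 0.428. Zbtb16, a zinc finger repressor, was less clear: 20.04, 60.1 and 47.1 CPM in the chronic libraries, against 62.7, 57.5, 158, 83.7 and 113 CPM in the acute libraries. Chronic library 2 was above acute library 2, and the log2 fold change was -1.16 ± 0.42 (SE; adjusted p = 0.621, edgeR; 0.130 in the fit of 6 groups). Per1, a clock gene with a receptor site of its own, showed no separation: 81.0, 84.8 and 88.3 CPM in the chronic libraries, against 114, 75.0, 99.8, 92.0 and 86.8 CPM in the acute libraries. The fold change on the log2 scale was -0.13 ± 0.14 (SE; adjusted p = 1.00, edgeR; 0.608 in the fit of 6 groups), and it turned to 0.10 without the 4 libraries low in glutamatergic markers. The pair with a log2 fold change above 0 was Lcn2 (0.80), which is also an inflammatory gene, and Wipf3 (0.10), both with overlapping groups.

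**Figure D1:**
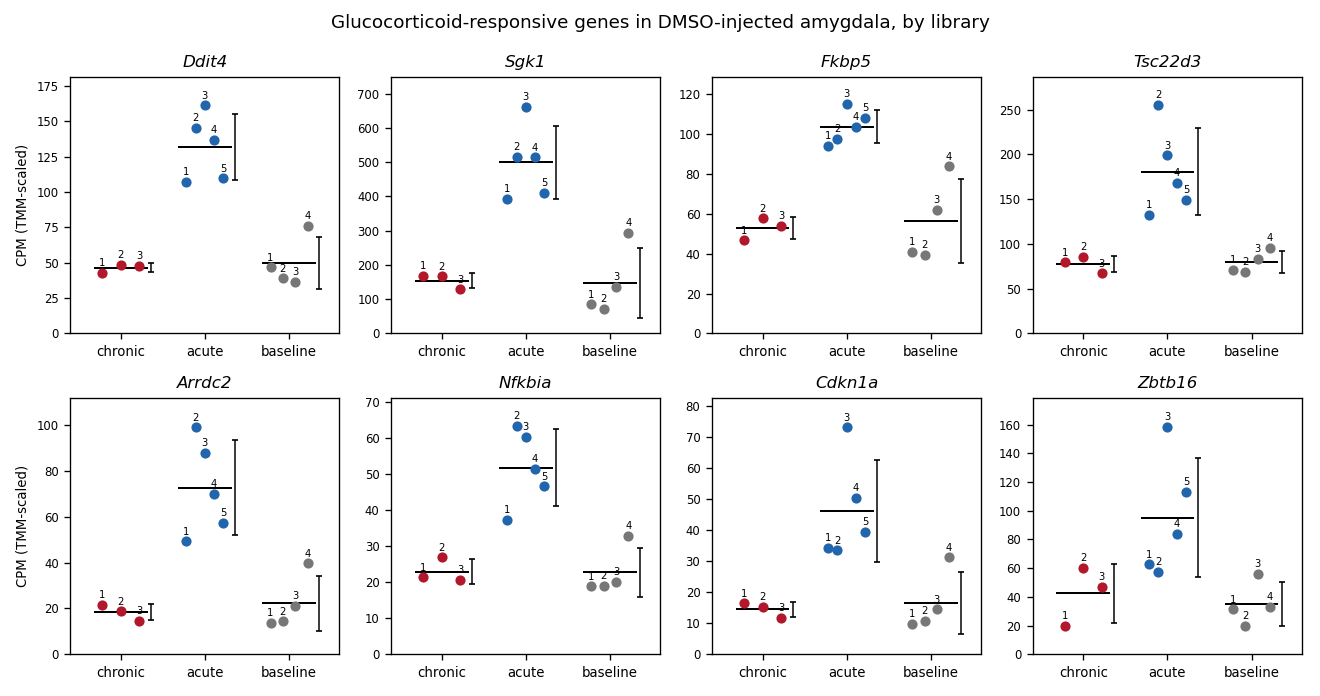
CPM (linear axis from 0) of 8 glucocorticoid-responsive genes in each chronic, acute and baseline DMSO library. Points are libraries with their replicate number, lines are means and bars are SD (n = 3 chronic, 5 acute and 4 baseline). All chronic points lie below all acute points except for Zbtb16, and baseline library 4 is the highest baseline library for Ddit4, Sgk1 and Fkbp5.

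Plekhf1 followed the same pattern outside the list. This endosomal protein of the PH and FYVE domain family had 6.99, 7.76 and 6.64 CPM in the chronic libraries, against 14.2, 19.4, 23.7, 17.3 and 16.4 CPM in the acute libraries. The difference came to a log2 fold change of -1.34 ± 0.18 (SE; adjusted p = 0.0905, edgeR; 0.00161 in the fit of 6 groups). Of the genes chosen after their values were seen, Polr3e, a subunit of RNA polymerase III, had 48.0, 43.4 and 45.9 CPM in the chronic libraries, against 78.7, 112, 95.7, 88.6 and 76.7 CPM in the acute libraries. Baseline libraries had 45.9 to 49.3 CPM, so the chronic range of 43.4 to 48.0 CPM overlapped them, and the log2 fold change of -0.97 ± 0.14 (SE) gave an adjusted p of 0.0905 (edgeR), of 1.71e-06 in the fit of 6 groups and of 0.00989 with 3′ UTR reads. Tma16, a ribosome biogenesis factor in yeast, had 8.87, 10.6 and 7.50 CPM in the chronic libraries, against 20.6, 22.2, 33.6, 23.3 and 21.3 CPM in the acute libraries. In log2 terms the fold change was -1.41 ± 0.20 (SE; adjusted p = 0.0905, edgeR; 8.72e-05 in the fit of 6 groups). Phactr3, which binds actin and protein phosphatase 1, had a log2 fold change of -0.61, and Dio2, the deiodinase that activates thyroid hormone, one of -0.71, both without overlap.

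Levels of the receptors themselves overlapped between the groups. Nr3c1 had 109, 90.6 and 102 CPM in the chronic libraries, against 100, 65.0, 109, 107 and 88.7 CPM in the acute libraries. Its log2 fold change was 0.10 ± 0.18 (SE; adjusted p = 1.00, edgeR; 0.787 in the fit of 6 groups). Nr3c2 had 58.2, 110 and 101 CPM in the chronic libraries, against 47.5, 63.9, 46.6, 58.1 and 110 CPM in the acute libraries. The log2 fold change was 0.47 ± 0.31 (SE; adjusted p = 1.00, edgeR; 0.404 in the fit of 6 groups). In Nr3c2 the libraries low in glutamatergic markers were the low ones in both groups, and the part of that in the difference was not tested. Of the 12 receptor, chaperone and steroid enzyme genes 7 were below 0 and 5 above, and 3 did not overlap (2.99% of all genes), all of them lower: Fkbp5, the co-chaperone Stip1 (log2 fold change -0.18) and the chaperone Hsp90ab1 (-0.18). Fkbp4, the co-chaperone that works against Fkbp5 in the receptor complex, had 115, 102 and 102 CPM in the chronic libraries, against 116, 179, 125, 116 and 112 CPM in the acute libraries, where acute library 2 stood apart (log2 fold change -0.27 ± 0.16 SE, adjusted p = 0.975, edgeR; 0.188 in the fit of 6 groups).

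**Figure D2:**
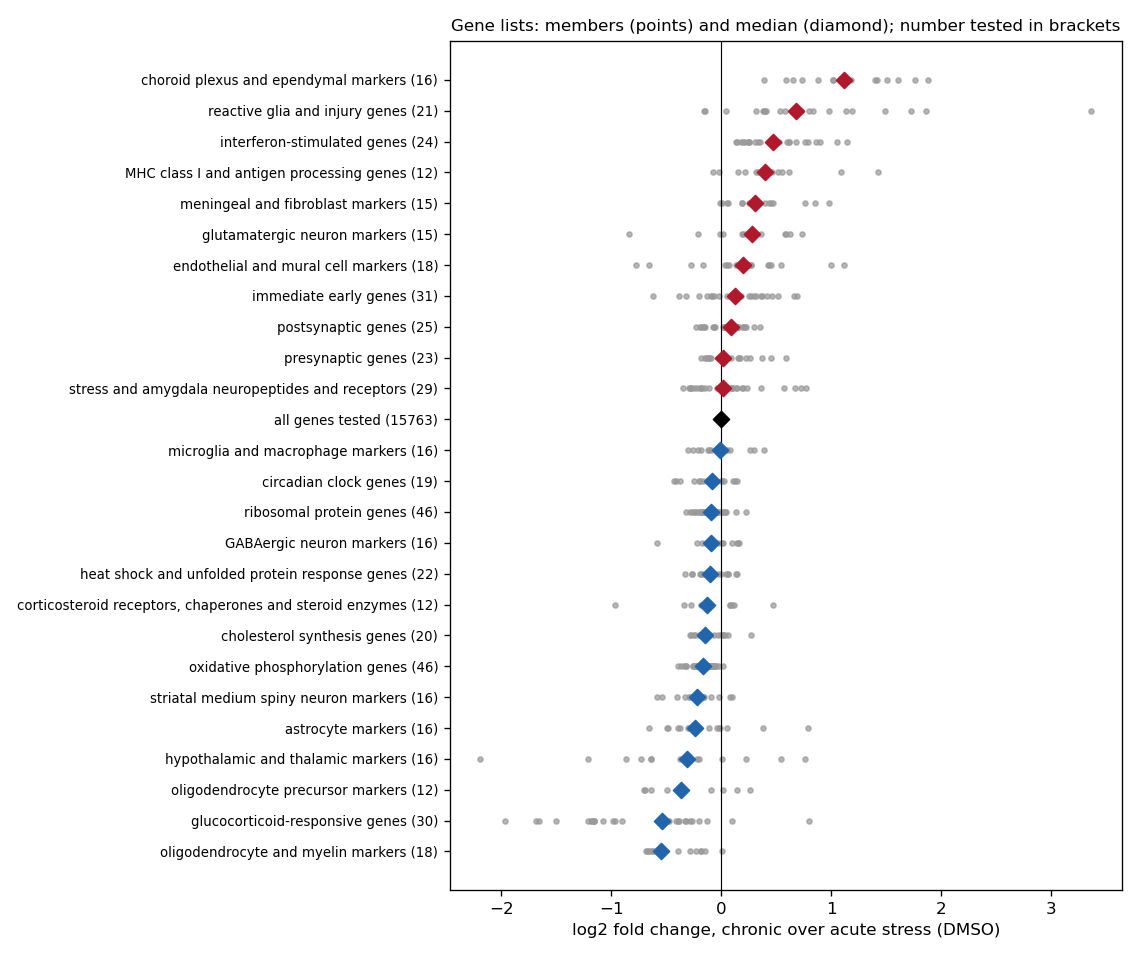
Log2 fold change of chronic over acute stress for the members of 25 gene lists and their medians, ordered by median, with all genes tested in black. Grey points are genes, diamonds are medians (red above 0, blue below) and the number tested stands in brackets. The glucocorticoid-responsive list has a median of -0.53 and the choroid plexus and ependymal list one of 1.12.

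On the higher side, Lratd2, Gpr84, Kdr, H2-Q4 and Sox9 had the 5 smallest p-values among non-predicted genes with a mean of at least 1 CPM. None passed an adjusted p of 0.05. Ccl2, below that mean, had a smaller p than Kdr, H2-Q4 and Sox9. Gpr84, a receptor for medium-chain fatty acids on microglia and other myeloid cells, had 4.11, 3.66 and 4.06 CPM in the chronic libraries, against 1.34, 0.759, 1.02, 1.24 and 1.63 CPM in the acute libraries, with 2.97, 2.77, 2.53 and 4.48 CPM at baseline. The lowest chronic library had more than the highest acute library, and so had every baseline library (log2 fold change 1.72 ± 0.25 SE, adjusted p = 0.0905, edgeR; 0.00519 in the fit of 6 groups). Lratd2 had 21.4, 21.6 and 19.9 CPM in the chronic libraries, against 10.6, 11.9, 10.02, 10.3 and 13.2 CPM in the acute libraries, with 18.3, 16.1, 15.6 and 17.3 CPM at baseline. On the log2 scale the fold change was 0.91 ± 0.12 (SE; adjusted p = 0.0905, edgeR; 0.000183 in the fit of 6 groups). H2-Q4, a class I histocompatibility gene with close paralogs that its reads may be shared with, had 8.82, 13.4 and 11.96 CPM in the chronic libraries, against 4.09, 6.25, 3.60, 4.13 and 3.31 CPM in the acute libraries, with 5.78, 5.55, 6.10 and 7.36 CPM at baseline. Here the chronic libraries were also above every baseline library (log2 fold change 1.43 ± 0.22 SE, adjusted p = 0.107, edgeR; 0.000158 in the fit of 6 groups).

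Inflammatory and injury genes were mostly higher in the chronic libraries. Of 21 genes of reactive glia and injury 19 were above 0, with a median of 0.68. Every chronic library was above every acute library in 6 of them (3.62% of all genes), and 12 stood at an unadjusted p under 0.05, all higher (4.13% of all genes). The fit of 6 groups called 3 of the 21, all higher (0.711% of all genes). Ccl2, a chemokine that draws monocytes, was near the floor of detection under acute stress, with 19, 31 and 16 raw counts in the chronic libraries, against 1, 5, 1, 1 and 2 raw counts in the acute libraries and 17, 4, 7 and 47 at baseline. The groups did not overlap, and the fitted log2 fold change of 3.37 ± 0.50 (SE; adjusted p = 0.0905, edgeR; 0.0406 in the fit of 6 groups) rests on these few reads. Timp1, an inhibitor of matrix proteases, had 5.94, 10.9 and 8.24 CPM in the chronic libraries, against 2.16, 1.93, 2.16, 1.36 and 3.87 CPM in the acute libraries. This is a log2 fold change of 1.87 ± 0.32 (SE; adjusted p = 0.131, edgeR; 0.0232 in the fit of 6 groups). Complement C3 had 5.64, 13.5 and 8.52 CPM in the chronic libraries, against 2.16, 1.34, 4.38, 1.89 and 4.20 CPM in the acute libraries. The fold change on the log2 scale was 1.73 ± 0.42 (SE; adjusted p = 0.302, edgeR; 0.0201 in the fit of 6 groups). Serpina3n, a protease inhibitor of reactive astrocytes with close paralogs, had 126, 190 and 136 CPM in the chronic libraries, against 56.5, 68.5, 95.3, 58.2 and 105 CPM in the acute libraries. The difference came to a log2 fold change of 0.98 ± 0.24 (SE; adjusted p = 0.302, edgeR; 0.173 in the fit of 6 groups). None of these genes overlapped between the groups. Baseline library 4 lay inside the chronic range for Serpina3n (156 CPM) and C3 (7.12 CPM) and above every chronic library for Timp1 (12.3 CPM). Socs3, a feedback inhibitor of cytokine signalling, also did not overlap (log2 fold change 1.19), and Gfap, the astrocyte filament, did: 1062, 1190 and 958 CPM in the chronic libraries, against 532, 954, 997, 753 and 915 CPM in the acute libraries. In log2 terms the fold change was 0.38 ± 0.20 (SE; adjusted p = 0.907, edgeR; 0.573 in the fit of 6 groups).

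All 24 interferon-stimulated genes were above 0, with a median of 0.47, but 1 of them, Xaf1, kept its groups apart (3.62% of all genes). Without acute library 2, 17 of the 24 had every chronic library above every acute library, against 7.12% of all genes. No other single library was left out for this count. Bst2, an antiviral membrane protein, had 9.11, 15.02 and 8.93 CPM in the chronic libraries, against 3.45, 12.4, 3.06, 3.24 and 4.76 CPM in the acute libraries. Its log2 fold change was 1.05 ± 0.45 (SE; adjusted p = 0.747, edgeR; 0.241 in the fit of 6 groups and 0.0626 without acute library 2). Of the 12 class I and antigen processing genes 10 were above 0, with a median of 0.40, and 2 did not overlap (3.62% of all genes), H2-Q4 and the peptide transporter Tap1 (log2 fold change 0.61). Without acute library 2 it was 9 of 12, against 7.12% of all genes. The fit of 6 groups called 1 of the 12 higher (0.711% of all genes) and 0 of the interferon-stimulated genes. Nlrc5, the transactivator of class I genes, had 3.17, 4.50 and 3.38 CPM in the chronic libraries, against 1.34, 3.33, 1.62, 1.06 and 1.40 CPM in the acute libraries. The log2 fold change was 1.09 ± 0.35 (SE; adjusted p = 0.506, edgeR; 0.175 in the fit of 6 groups). Microglial genes were balanced: 9 of 16 were below 0 and 7 above, with a median of -0.01, and Cx3cr1, the fractalkine receptor, was the 1 member without overlap (3.62% of all genes; log2 fold change 0.39 ± 0.15 SE, adjusted p = 0.670, edgeR; 0.0986 in the fit of 6 groups).

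**Figure D3:**
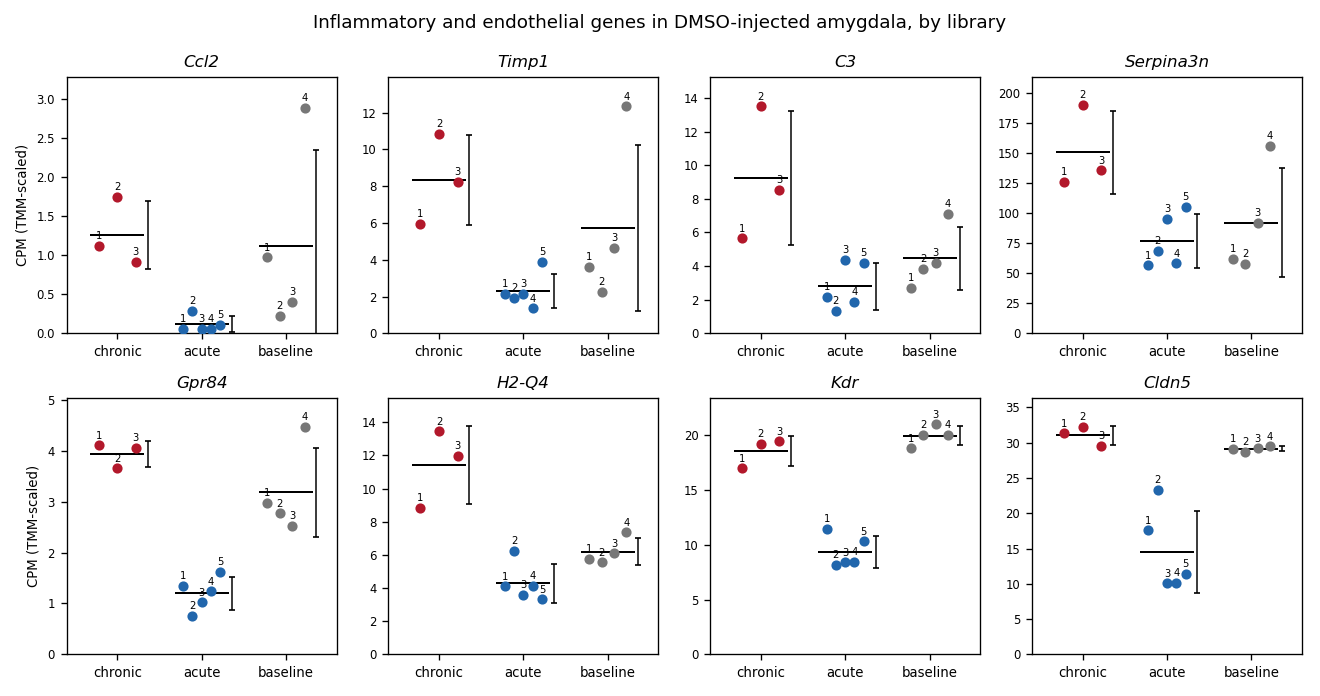
CPM (linear axis from 0) of 6 inflammatory and immune genes and of the endothelial genes Kdr and Cldn5 in each chronic, acute and baseline DMSO library. Points are libraries with their replicate number, lines are means and bars are SD, cut off at 0 (n = 3 chronic, 5 acute and 4 baseline). All chronic points lie above all acute points in the 8 genes, and acute library 2 is the highest acute point of H2-Q4.

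Vascular genes split in both directions. Kdr, the VEGF receptor 2 of endothelial cells, had 16.985, 19.2 and 19.5 CPM in the chronic libraries, against 11.5, 8.18, 8.40, 8.43 and 10.3 CPM in the acute libraries, with 18.8, 20.02, 21.0 and 20.06 CPM at baseline. Chronic libraries were all above acute libraries, and 2 of 3 lay in the baseline range (log2 fold change 1.00 ± 0.15 SE, adjusted p = 0.0905, edgeR; 0.0119 in the fit of 6 groups). Cldn5, the tight junction claudin of the blood-brain barrier, had 31.3, 32.3 and 29.6 CPM in the chronic libraries, against 17.6, 23.3, 10.1, 10.1 and 11.4 CPM in the acute libraries, with 28.7 to 29.5 CPM at baseline. On the log2 scale the fold change was 1.12 ± 0.27 (SE; adjusted p = 0.302, edgeR; 0.00572 in the fit of 6 groups). Mfsd2a, the barrier's transporter of docosahexaenoic acid, went the other way, with 22.8, 19.6 and 16.02 CPM in the chronic libraries, against 31.1, 37.7, 37.2, 29.7 and 33.0 CPM in the acute libraries. This is a log2 fold change of -0.78 ± 0.14 (SE; adjusted p = 0.163, edgeR; 0.00634 in the fit of 6 groups). So did Slc2a1, the glucose transporter GLUT1, with 117, 121 and 117 CPM in the chronic libraries, against 182, 220, 208, 172 and 160 CPM in the acute libraries. The fold change on the log2 scale was -0.66 ± 0.12 (SE; adjusted p = 0.172, edgeR; 0.0104 in the fit of 6 groups). Of the 18 endothelial and mural genes 14 were above 0, with a median of 0.20. In 7 every chronic library was above every acute library (3.62% of all genes), Pdgfrb of pericytes among them (log2 fold change 0.54), and in 2 below (2.99% of all genes), the transporters Mfsd2a and Slc2a1. The fit of 6 groups called 3 higher (0.711% of all genes) and 2 lower (1.07% of all genes).

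Markers of tissue that borders the amygdala were higher too. Markers of choroid plexus and ependyma, cells that line the ventricle, were above 0 in 16 of 16 genes, with a median of 1.12, and 6 of them did not overlap (3.62% of all genes). At an unadjusted p under 0.05 stood 4 of the 16, all higher (4.13% of all genes), and the fit of 6 groups called 0. Their summed level was 5465, 7789 and 6557 CPM in the chronic libraries, against 358, 7731, 2574, 1026 and 4564 CPM in the acute libraries and 4550 to 5600 CPM at baseline. Acute library 2 lay inside the chronic range and acute library 1 had 2 of the 16 markers, Calml4 and Tmem212, at 0 counts. Markers of meninges and fibroblasts were above 0 in 14 of 15 genes, with a median of 0.31, and summed to 387, 466 and 391 CPM in the chronic libraries, against 161, 385, 273, 208 and 367 CPM in the acute libraries. The 3 that did not overlap (3.62% of all genes) were Igf2 (log2 fold change 0.98) and the growth factors Bmp6 (0.85) and Bmp7 (0.77). In bulk tissue fewer cells of a type and less RNA per cell cannot be told apart, and the part of these tissues in the inflammatory and vascular genes was not tested. Acute library 2, with the most choroid plexus signal of the acute libraries, was the lowest, the highest or between the others, depending on the gene. It was the lowest for Gpr84, C3, Pdgfrb and, narrowly, Kdr (8.18 CPM, against 8.40 in acute library 3). For Cldn5, Mfsd2a, Slc2a1, Bst2, H2-Q4, Nlrc5 and Ccl2 it was the highest. For Timp1, Serpina3n, Socs3, Xaf1 and Tap1 it lay between other acute libraries.

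**Figure D4:**
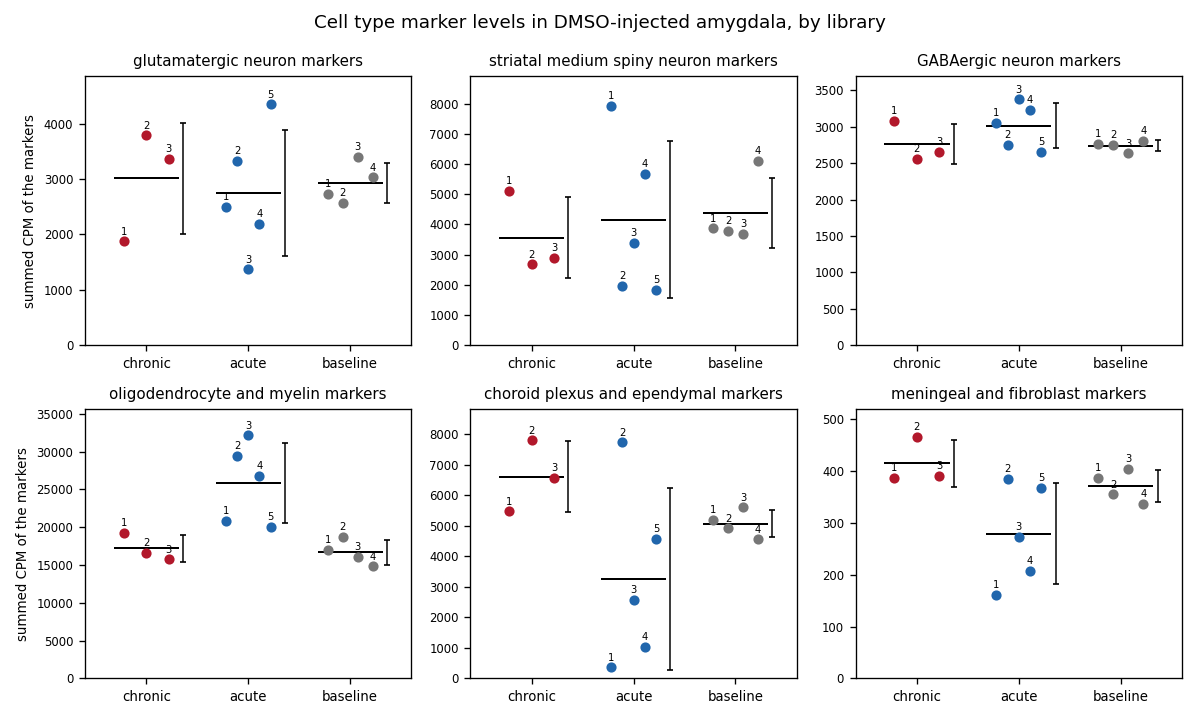
Summed CPM (linear axis from 0) of 6 cell type marker lists in each chronic, acute and baseline DMSO library. Points are libraries with their replicate number, lines are means and bars are SD (n = 3 chronic, 5 acute and 4 baseline). The acute libraries spread most, from 358 to 7731 CPM for choroid plexus and ependymal markers, and every acute library is above every chronic library for myelin markers.

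Myelin genes were mostly lower in the chronic libraries. Of 18 oligodendrocyte and myelin genes 17 were below 0, with a median of -0.55. The groups did not overlap in 6 (2.99% of all genes), 11 stood at an unadjusted p under 0.05 (2.34% of all genes), and the fit of 6 groups called 8, all lower (1.07% of all genes). Their summed level was 19239, 16572 and 15747 CPM in the chronic libraries, against 20820, 29459, 32127, 26764 and 20069 CPM in the acute libraries and 14837 to 18709 CPM at baseline. Mbp, a major protein of compact myelin, had 6501, 5687 and 5251 CPM in the chronic libraries, against 7384, 10472, 10523, 9012 and 6768 CPM in the acute libraries. The difference came to a log2 fold change of -0.59 ± 0.18 (SE; adjusted p = 0.474, edgeR; 0.0119 in the fit of 6 groups). Mal, a lipid raft protein of myelin, had 759, 582 and 572 CPM in the chronic libraries, against 870, 1181, 1281, 1044 and 810 CPM in the acute libraries. In log2 terms the fold change was -0.69 ± 0.19 (SE; adjusted p = 0.379, edgeR; 0.00603 in the fit of 6 groups). Tspan2, a tetraspanin of oligodendrocytes, had a log2 fold change of -0.68 without overlap. Acute libraries 3 and 4 were high in myelin and low in glutamatergic markers, acute library 2 was high in myelin alone, and the part of tissue makeup in these genes was not tested.

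Oligodendrocyte precursor genes were lower as well, 9 of 12 below 0 with a median of -0.37 and 4 without overlap (2.99% of all genes): Gpr17, a receptor of cells about to mature (log2 fold change -0.70), Neu4, a sialidase (-0.69), the transcription factor Olig1 (-0.64) and the proteoglycan Bcan (-0.36). The fit of 6 groups called 5 of the 12, all lower (1.07% of all genes). Gpr17 had 70.4, 60.6 and 57.7 CPM in the chronic libraries, against 118, 80.9, 119, 101 and 96.1 CPM in the acute libraries. Its log2 fold change was -0.70 ± 0.15 (SE; adjusted p = 0.261, edgeR; 0.00623 in the fit of 6 groups).

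Astrocyte genes divided. Of 16 astrocyte genes 13 were below 0, with a median of -0.24, and 4 of them without overlap (2.99% of all genes). Gjb6, the gap junction protein connexin 30, had 51.0, 52.4 and 49.9 CPM in the chronic libraries, against 59.8, 104, 86.6, 76.5 and 78.5 CPM in the acute libraries. The log2 fold change was -0.65 ± 0.16 (SE; adjusted p = 0.309, edgeR; 0.00392 in the fit of 6 groups). Ntsr2, a neurotensin receptor of astrocytes, had a log2 fold change of -0.48 without overlap. Of the 3 genes above 0, Sox9, the transcription factor of astrocyte identity, was the 1 without overlap (3.62% of all genes). It had 44.8, 55.9 and 56.6 CPM in the chronic libraries, against 26.02, 34.3, 28.7, 28.6 and 34.8 CPM in the acute libraries and 43.8 to 56.7 CPM at baseline. The chronic libraries lay within the baseline range (log2 fold change 0.79 ± 0.13 SE, adjusted p = 0.107, edgeR; 0.00937 in the fit of 6 groups).

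**Figure D5:**
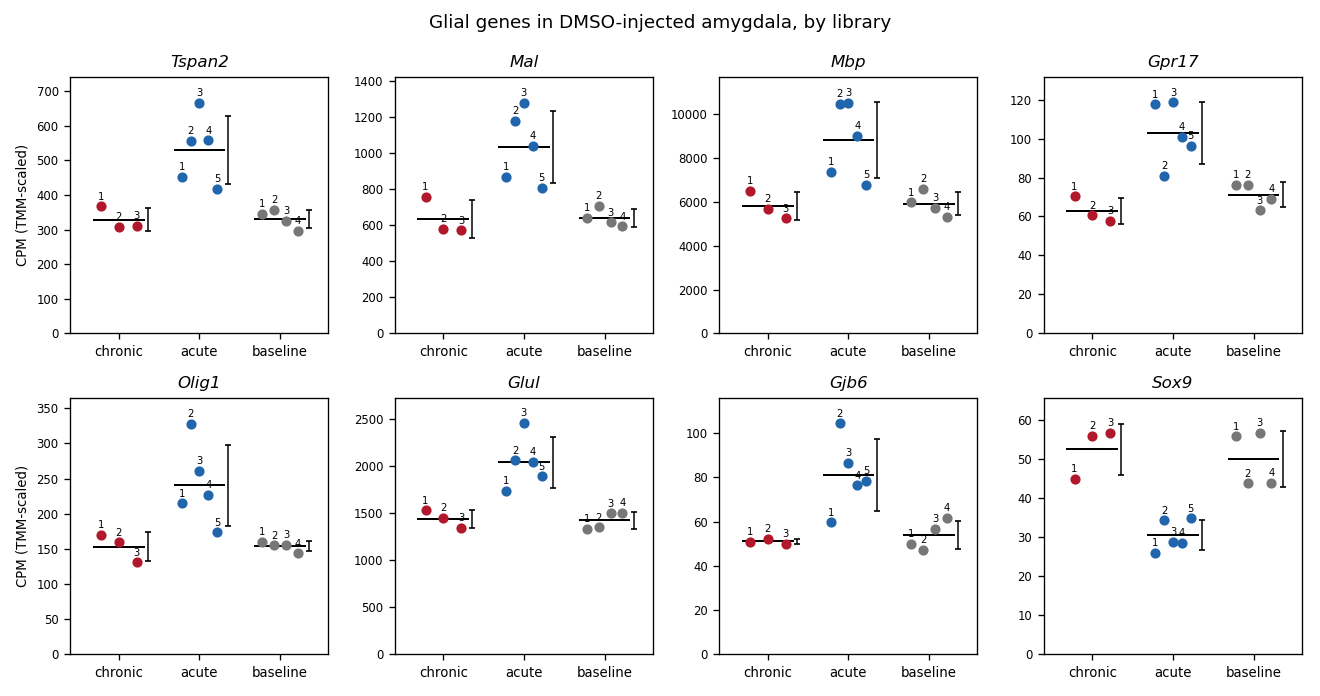
CPM (linear axis from 0) of 8 genes of oligodendrocytes, their precursors and astrocytes in each chronic, acute and baseline DMSO library. Points are libraries with their replicate number, lines are means and bars are SD (n = 3 chronic, 5 acute and 4 baseline). All chronic points lie below all acute points except for Sox9, where all lie above.

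Neuronal markers overlapped between the groups. Glutamatergic markers summed to 1878, 3788 and 3367 CPM in the chronic libraries, against 2498, 3333, 1370, 2190 and 4349 CPM in the acute libraries, and markers of striatal medium spiny neurons to 5103, 2682 and 2895 CPM in the chronic libraries, against 7931, 1979, 3383, 5678 and 1840 CPM in the acute libraries. In both lists the lowest and the highest library were acute libraries, with the chronic libraries between them, and no medium spiny neuron gene had an unadjusted p under 0.05. Of 15 glutamatergic markers 12 were above 0 (median 0.28), and of 16 medium spiny neuron markers 14 were below 0 (median -0.22). Without the 4 libraries low in glutamatergic markers, 14 of these 16 had every chronic library above every acute library, against 19.2% of all genes. Slc17a6, the vesicular glutamate transporter VGLUT2 of subcortical neurons, was the 1 glutamatergic marker of 15 without overlap (2.99% of all genes), with 26.1, 16.1 and 16.3 CPM in the chronic libraries, against 34.3, 39.7, 31.3, 37.3 and 34.1 CPM in the acute libraries. On the log2 scale the fold change was -0.84 ± 0.18 (SE; adjusted p = 0.236, edgeR; 0.125 in the fit of 6 groups). Hypothalamic and thalamic markers, of tissue that also holds Slc17a6, were below 0 in 12 of 16 genes, with a median of -0.31 and 0 without overlap. They summed to 181, 187 and 165 CPM in the chronic libraries, against 183, 316, 206, 218 and 244 CPM in the acute libraries, and their part in Slc17a6 was not tested. Rspo2, a marker of the basolateral amygdala, was detected in all 8 libraries, at 2.23, 9.62 and 10.8 CPM in the chronic libraries, against 4.62, 7.47, 1.86, 3.18 and 7.51 CPM in the acute libraries.

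Immediate early genes, which mark recent neuronal activity, showed no member with separate groups and no member at an unadjusted p under 0.05 among 31, and 22 of them were above 0, with a median of 0.12. Fos had 6.94, 11.3 and 11.7 CPM in the chronic libraries, against 11.5, 8.82, 13.5, 6.31 and 7.34 CPM in the acute libraries. This is a log2 fold change of 0.08 ± 0.28 (SE; adjusted p = 1.00, edgeR; 0.952 in the fit of 6 groups). Npas4 had the largest log2 fold change of the named ones, 0.69 ± 0.36 (SE; adjusted p = 0.916, edgeR; 0.355 in the fit of 6 groups), followed by Bdnf, a neurotrophin, at 0.42 ± 0.89, Arc at 0.37 ± 0.20, Nr4a1 at 0.30 ± 0.17 and Egr1 at 0.12 ± 0.32. Fosb, among the 9 members below 0, had a log2 fold change of -0.32 ± 0.19 (SE; adjusted p = 0.980, edgeR; 0.675 in the fit of 6 groups). Bdnf went with the glutamatergic markers: 3.59, 24.2 and 16.7 CPM in the chronic libraries, against 3.099, 23.1, 2.34, 2.77 and 24.9 CPM in the acute libraries, with the 4 low libraries at 2.34 to 3.59 CPM, and the sign of its fold change turned without them (-0.23).

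Peptide systems of stress had members on both sides. Of 29 neuropeptide and receptor genes 14 were below 0 and 15 above, with a median of 0.01. Crh, the corticotropin-releasing hormone of central amygdala neurons, had 10.4, 4.84 and 8.18 CPM in the chronic libraries, against 8.60, 8.58, 5.64, 7.78 and 8.41 CPM in the acute libraries. The fold change on the log2 scale was 0.01 ± 0.25 (SE; adjusted p = 1.00, edgeR; 0.999 in the fit of 6 groups). Cckbr, the cholecystokinin receptor linked to anxiety, was the 1 member of 29 without overlap, a share near that of all genes (3.62%), with 11.9, 9.11 and 12.4 CPM in the chronic libraries, against 6.20, 8.12, 6.36, 7.96 and 6.67 CPM in the acute libraries. The difference came to a log2 fold change of 0.67 ± 0.16 (SE; adjusted p = 0.302, edgeR; 0.0255 in the fit of 6 groups). Crhr2, a urocortin receptor also found in choroid plexus, had a log2 fold change of 0.77 ± 0.31 (SE; adjusted p = 0.683, edgeR; 0.193 in the fit of 6 groups), with overlap at acute library 2. Among 19 clock genes 14 were below 0, with a median of -0.08, and none kept its groups apart; the output gene Dbp had a log2 fold change of -0.43 ± 0.26 (SE; adjusted p = 0.993, edgeR; 0.381 in the fit of 6 groups).

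Housekeeping programmes had medians near 0. Of 46 genes of oxidative phosphorylation 45 were below 0 at a median of -0.16, and 38 of 46 ribosomal protein genes at a median of -0.09, with 0 at an unadjusted p under 0.05 in either list. Acute library 2 was far above the other acute libraries in several of them: Cox5a, a cytochrome c oxidase subunit, had 94.6, 91.1 and 78.7 CPM in the chronic libraries, against 96.1, 205, 92.4, 90.3 and 81.2 CPM in the acute libraries. Heat shock and unfolded protein response genes were below 0 in 16 of 22, with a median of -0.10 and 5 without overlap (2.99% of all genes), among them Herpud1 of the endoplasmic reticulum (log2 fold change -0.33 ± 0.11 SE, adjusted p = 0.506, edgeR; 0.0280 in the fit of 6 groups) and the chaperone Hspa8 (-0.26 ± 0.15). Genes of cholesterol synthesis were below 0 in 15 of 20, with a median of -0.15. Postsynaptic genes had a median of 0.09 over 25 and presynaptic genes one of 0.02 over 23, with 0 members at an unadjusted p under 0.05.

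Without 4sU, T-to-C conversions measure the background of the labelling assay, from sequencing errors, variants and damage. The overall rate over all 3′ UTR intervals was 0.0250% ± 0.00143 in the chronic libraries and 0.0242% ± 0.00183 in the acute libraries (SD, n = 3 and 5), and 0.0275% ± 0.00304 at baseline (n = 4). The difference of 0.000846 percentage points with all 8 libraries was smaller than the spread within either group (exact permutation test, two-sided, p = 0.536, with 0.0357 the smallest p that 56 splits allow). It moved with the libraries used, to 0.000139 without chronic library 2, 0.00157 without chronic library 1, 0.00162 without acute library 1, 0.000504 without acute library 3, 0.000519 without acute library 5 and 0.00224 without the libraries low in glutamatergic markers. Chronic libraries had 18.7% ± 0.283 of their reads in 3′ UTR intervals and acute libraries 19.7% ± 2.37 (SD, n = 3 and 5), a difference of -0.969 percentage points (exact permutation test, two-sided, p = 0.929) that turned to 0.0861 without acute library 2 and was -2.45 without the libraries low in glutamatergic markers.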

How the data were processed

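Whole-number exon counts per gene symbol were deposited by the authors in a table of baseline and acute and a table of baseline and chronic libraries, without normalization. Both list 25239 genes, with 0 differing values in the 9 baseline columns found in both, and were merged by gene. Tools named are featureCounts 2.0.1, SAMtools 1.9, HISAT2 2.1.0 and cutadapt 3.1, with the mm10 build, per the submitters' processing notes. Strand and multiple-match settings are not described in the labels, so genes that overlap, lie antisense or have close copies are counted with uncertainty. Counts of reads, covered T positions and conversions per 3′ UTR interval were deposited for each library (slamdunk 0.4.3, per the file headers), with a CPM column in which the authors scaled reads to the library total. That column gave the total reads behind the 3′ UTR share, and 19236 symbols of these intervals were also in the exon tables.

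Chronic (n = 3) and acute (n = 5) libraries were fitted alone with edgeR 4.0.16 in R 4.3.3 (TMM, filterByExpr, robust quasi-likelihood, two-sided, Benjamini-Hochberg over all genes tested), because the acute DMSO libraries vary more than the other amygdala groups and a fit of all 6 groups gives them too small a spread. That fit, a fit of the 3 DMSO groups, DESeq2 1.42.0, limma 3.58.1 with sample weights, other scaling and filters, 3′ UTR reads, and left-out libraries were alternatives. The edgeR step was tested on simulated counts with the same spread in both groups, smaller than that of the acute libraries. That check therefore does not cover the unequal spread of these groups. Library-wide values were compared by exact permutation tests (SciPy 1.17.1). Tables and figures used Python 3.11.15, pandas 2.3.3, numpy 2.4.6 and matplotlib 3.10.9. Replicates of a group differed beyond counting noise, so none was merged.

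The groups, the 25 gene lists and the 18 fixed genes were chosen with earlier results of these data known, and counts over lists are descriptions without a test. Named genes were the 10 smallest p-values per direction past an adjusted p of 0.05 with a mean of at least 1 CPM (the 5 smallest where fewer than 5 passed, as here), the fixed genes, and up to 4 members of each list. Predicted genes (symbols of Gm with digits, or with Rik) were left out of the smallest p-values. Errfi1, Pdk4, Klf15, Mt2, Lcn2, Wipf3, Socs3, Pdgfrb, Tap1, Hsp90ab1, Polr3e, Phactr3, Tma16 and Dio2 were chosen after their values were seen. Intervals for counting error are not given because the spread between libraries exceeds it.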

Additional observations from a re-analysis of the deposited data

Results flagged for a closer look

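The values examined share the same 5 acute libraries, and some genes were chosen after their values were seen. The share flagged can therefore not be set against the rate for a single group, where chance flags about 1 in 20. Of the 87 values examined, 13 had a single acute library far from the other 4 (Dixon's ratio above 0.71). In 9 of them it was acute library 2, as the highest: 0.292 CPM of Ccl2 against 0.0585 to 0.112 in the other acute libraries, 6.25 CPM of H2-Q4 against 3.31 to 4.13, 3.33 CPM of Nlrc5 against 1.06 to 1.62, 12.4 CPM of Bst2 against 3.06 to 4.76, 179 CPM of Fkbp4 against 112 to 125, 2127 CPM of Hspa8 against 1408 to 1607, 2397 CPM of Hsp90ab1 against 1713 to 1844, 205 CPM of Cox5a against 81.2 to 96.1, and 23.9% of reads in 3′ UTR intervals against 18.5% to 19.0%. Acute library 3 was the highest for Tma16 (33.6 CPM against 20.6 to 23.3) and Lcn2 (11.8 CPM against 3.25 to 4.66) and the lowest for Crh (5.64 CPM against 7.78 to 8.60). Acute library 5 was the highest for Nr3c2, with 110 CPM against 46.6 to 63.9. What sets these libraries apart was not tested.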

How the results depend on the processing

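The count of called genes differed between fits: 0 in the fit of the 8 libraries, 136 with DESeq2, 1506 with limma and sample weights, 23 with the 3 DMSO groups in a fit and 291 with all 6 groups, of which DESeq2 shared 126, limma 286 and the fit of 3 groups 22. These fits differ in more than a single choice (test, scaling, weights, libraries or genes tested). Without a filter on low counts it was 1 (Ddit4) and with 3′ UTR reads 4 (Ddit4, Fkbp5, Sgk1 and Polr3e). It stayed at 0 with RLE scaling, without the libraries low in glutamatergic markers, with those markers as a covariate, and with the replicate number as a block. Without the libraries low in those markers the fit had 4 libraries left. Leaving out a library gave 0 to 7 calls, the 7 without acute library 2 (Polr3e, Phactr3, Ccl2, Dio2, H2-Q4, Ddit4 and Fkbp5). The count of glucocorticoid-responsive genes without overlap, chosen after seeing the data, ranged from 14 to 21 over left-out libraries.

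The replicate numbers were not taken as pairs. Deviations from the group means correlated at 0.375, 0.336 and -0.132 for numbers 1, 2 and 3, and chronic library 1 correlated more with acute library 4 (0.392). With the block, edgeR called 0 genes at a smallest adjusted p of 0.253, 1005 genes stood at an unadjusted p under 0.05, the conversion difference was 0.000279 and the 3′ UTR share difference -1.59 percentage points.

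Signs turned in genes without a difference past the threshold, and the cause was not tested. Log2 fold changes over left-out libraries ran from -0.017 to 0.16 for Nr3c1, -0.076 to 0.28 for Fos, -0.037 to 0.42 for Egr1, -0.16 to 0.91 for Bdnf and -0.26 to 0.24 for Crh. Without the libraries low in glutamatergic markers they were 0.10 for Per1, -0.23 for Bdnf and -0.38 for Crh. Crh was also at -0.0031 with DESeq2, -0.0029 with RLE scaling, -0.12 with limma, -0.00038 with 3 groups and -0.0017 with 6 groups, Nr3c1 at -0.074 with limma and Fos at -0.17 with the block. The 3′ UTR share difference ran from -1.28 to 0.0861 percentage points over left-out libraries, and the conversion difference from 0.000139 to 0.00162. Genes near the floor such as Ccl2, with 1 to 5 counts in the acute libraries, are limited by depth.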
